A study of Oncorhynchus mykiss with 13 samples.

Results

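The 5 spotted cDNA clones described here come from an array of the rainbow trout and have best protein matches that handle RNA. They are similar to Y-box protein 1 (clone tcac0002.b.13, # 189), to the beta subunit of the translation initiation factor eIF-2 (tcay0023.c.11, # 190), to an exosome component (tcba0023.m.01, # 195), to the RNA-binding protein RNPC2 (tcac0002.f.11, # 197) and to a large-subunit ribosomal protein (tcak0001.o.11, # 204). The 5 clones were selected by name from the study's list of clones that differed between ovarian stages on these same arrays, so they were chosen from the stage differences given below. Their stage differences are therefore a description. No p-value is given for them, and where a clone passed the threshold of the fit across all clones this is stated only to place it on the array. They are 5 of the 9023 clones in the table and 5 of the 8077 clones above 0 on every array.

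RNA was taken from full ovarian tissue of 13 rainbow trout females of an autumn-spawning strain, 2 years old and in their first reproductive season, and each female was hybridized to 1 nylon array with phosphorus-33 label. Late vitellogenesis, the end of yolk deposition, was represented by females 2, 3 and 4. Post-vitellogenesis, when yolk uptake is over and meiosis has not visibly resumed, was represented by females 13, 14, 15 and 31. Oocyte maturation, after meiosis resumption, was represented by females 25, 26, 27, 28, 29 and 30. Each stage holds different fish, so the spread is that between females, and the number of arrays per stage limits the precision. Values are ratios of the spot signal to the median of its array, so they compare females for 1 clone. Where clones are ranked on an array or grouped by ratio, this orders their signals and not their amounts of RNA.

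A full-grown oocyte carries a large store of maternal messenger RNA and ribosomes, laid down during its growth and used during maturation and early development. In the frog Xenopus, Y-box proteins package stored messenger RNA and hold it back from translation. The factor eIF-2 brings the initiator transfer RNA to the small ribosomal subunit, and the exosome degrades and trims RNA from its 3′ end. RNPC2, now called RBM39, is a splicing factor that in mammals also acts as a coactivator of steroid hormone receptors. The tissue also holds the follicular cells around each oocyte, and in whole tissue fewer cells of a type and less RNA per cell cannot be told apart.

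All 5 clones had lower ratios in every maturing female than in every late vitellogenic female. The RNPC2-like clone had the largest difference of the 5, 3.03-fold between the geometric means, followed by the large-subunit ribosomal protein-like clone at 1.69-fold. The exosome component-like, Y-box protein 1-like and eIF-2 beta-like clones differed by 1.37-fold, 1.35-fold and 1.28-fold. Over all 8077 clones, 4.30% had every maturing female below every late vitellogenic female, but this separation is part of what selected the 5 and nothing is read from it. When the females of both earlier stages were pooled, 0 of the 5 clones had all maturing females below all earlier ones (1.63% of all clones did).

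**Figure D1:**
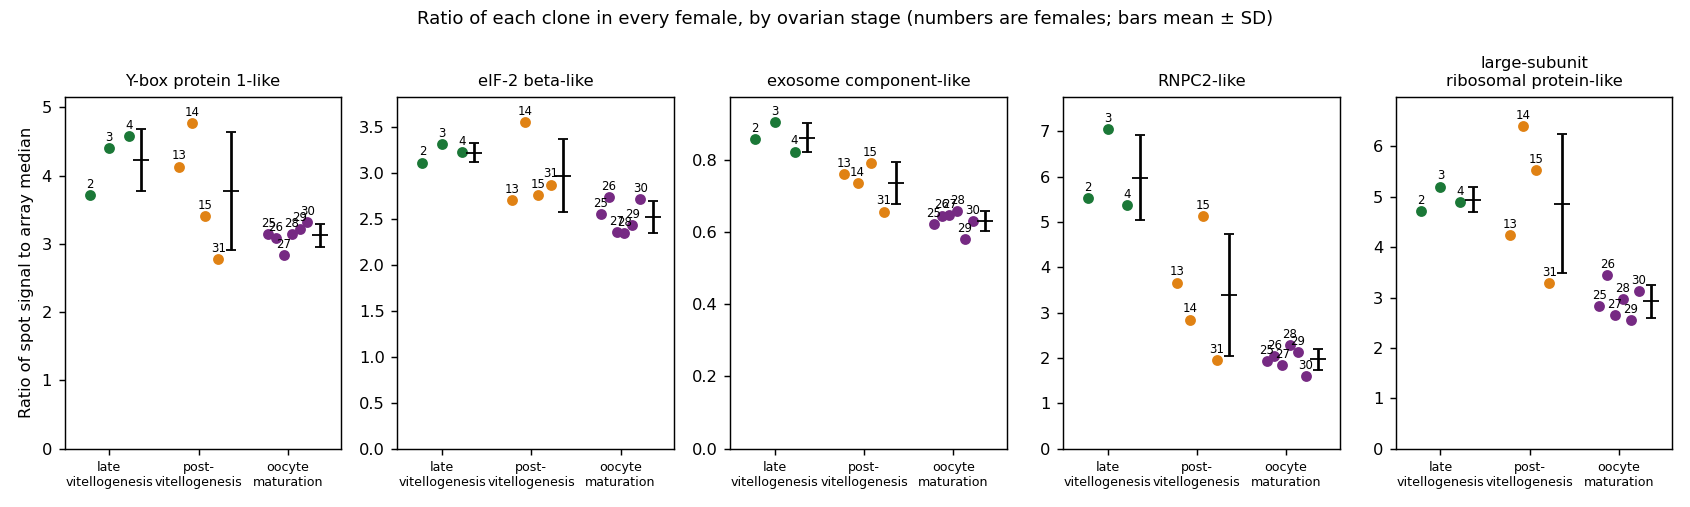
Ratio of spot signal to array median (vertical axis, linear, from 0) for the 5 clones in the 13 females, grouped by ovarian stage. Points are single females with their numbers and bars are the mean ± SD of a stage. The 6 maturing females lie below the 3 late vitellogenic females for each clone, while the 4 post-vitellogenic females of the RNPC2-like clone spread from 1.95, within the maturing range, to 5.12, just under the late vitellogenic one.

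The RNPC2-like clone was the clone with the widest range. In late vitellogenesis its ratio was 5.52 in female 2, 7.05 in female 3 and 5.37 in female 4 (mean 5.98 ± 0.931, SD, n = 3). In post-vitellogenesis it was 3.66 in female 13, 2.85 in female 14, 5.12 in female 15 and 1.95 in female 31 (mean 3.40 ± 1.35, SD, n = 4). All 4 post-vitellogenic females were thus below the 3 late vitellogenic ones, although female 15 came close to them. In oocyte maturation the ratio had a lowest value of 1.605, a median of 1.99 and a highest value of 2.28 (mean 1.97 ± 0.234, SD, n = 6). Female 31 stood within this maturing range and the other 3 post-vitellogenic females above it.

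The log2 fold change of the RNPC2-like clone was -0.89 (SE 0.23) from late vitellogenesis to post-vitellogenesis, the 5th lowest of the 8077 clones. It was -0.70 (SE 0.20) from post-vitellogenesis to oocyte maturation and -1.60 (SE 0.22) over the whole interval, where it was the 7th lowest. For each of the 5 clones, the SE of a step uses a single variance pooled over all 3 stages. It therefore does not reflect unequal spreads, and the SDs of this clone's log2 ratio were 0.22, 0.59 and 0.18 in stage order. Read by its rank on the array, the clone went from brighter than 95.4% to 97.2% of clones in late vitellogenic females to brighter than 70.5% to 82.2% in maturing ones. Without females 14 and 31 the first step was -0.45 and the second -1.14, so how the difference divides between both steps rests on which post-vitellogenic females are counted.

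The large-subunit ribosomal protein-like clone had another course. Ribosomal proteins of the large subunit are part of the machinery that joins amino acids, and their messenger RNAs are among the abundant ones of most cells. Its ratio was 4.71 in female 2, 5.20 in female 3 and 4.90 in female 4 (mean 4.94 ± 0.248, SD, n = 3). In post-vitellogenesis it was 4.24 in female 13, 6.40 in female 14, 5.54 in female 15 and 3.29 in female 31 (mean 4.87 ± 1.38, SD, n = 4). The post-vitellogenic females therefore lay on both sides of the late vitellogenic range, with female 14 the highest of all 13 females. In oocyte maturation the ratio ran from a lowest value of 2.55 through a median of 2.90 to a highest value of 3.45 in female 26 (mean 2.93 ± 0.328, SD, n = 6). The maturing females were below all earlier females except female 31, which female 26 exceeded. The log2 fold change was -0.07 (SE 0.18) for the first step and -0.69 (SE 0.16) for the second. The first step ran from -0.21 without female 14 to 0.11 without female 31, so its direction rests on which females are counted. With the pseudocount, quantile normalization and array weights it was -0.06, -0.12 and -0.004.

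The exosome component-like clone had the narrowest log2 spread of the 5 in maturing females. Its ratio was 0.857 in female 2, 0.904 in female 3 and 0.823 in female 4 (mean 0.861 ± 0.0406, SD, n = 3). In post-vitellogenesis it was 0.760 in female 13, 0.735 in female 14, 0.790 in female 15 and 0.657 in female 31 (mean 0.735 ± 0.0572, SD, n = 4). All post-vitellogenic females were below all late vitellogenic ones, by a small step. In oocyte maturation the lowest ratio was 0.580, the median 0.637 and the highest 0.659 (mean 0.630 ± 0.0282, SD, n = 6). Only female 31 of the earlier females reached the maturing range, at 0.657 against 0.659 in female 28. The log2 fold changes of the first and second steps were -0.23 (SE 0.12) and -0.22 (SE 0.10), which makes this the clone with the most even descent of the 5.

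The Y-box protein 1-like clone varied most between post-vitellogenic females of the 3 clones with small differences. Its ratio was 3.71 in female 2, 4.404 in female 3 and 4.58 in female 4 (mean 4.23 ± 0.459, SD, n = 3). In post-vitellogenesis it was 4.13 in female 13, 4.76 in female 14, 3.41 in female 15 and 2.78 in female 31 (mean 3.77 ± 0.864, SD, n = 4). Female 14 was thus above all late vitellogenic females and female 31 below all maturing ones. In oocyte maturation the lowest ratio was 2.83, the median 3.14 and the highest 3.31 (mean 3.12 ± 0.163, SD, n = 6). The log2 fold changes were -0.19 (SE 0.16) for the first step and -0.24 (SE 0.14) for the second.

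The eIF-2 beta-like clone had the smallest difference over the whole interval. Its ratio was 3.11 in female 2, 3.31 in female 3 and 3.22 in female 4 (mean 3.22 ± 0.102, SD, n = 3). In post-vitellogenesis it was 2.70 in female 13, 3.55 in female 14, 2.75 in female 15 and 2.87 in female 31 (mean 2.97 ± 0.393, SD, n = 4). Female 14 was again above the late vitellogenic range, and here female 13 rather than female 31 was lowest. In oocyte maturation the lowest ratio was 2.35, the median 2.49 and the highest 2.73 (mean 2.52 ± 0.172, SD, n = 6). Maturing females 26 and 30 (2.73 and 2.71) were above female 13. The log2 fold changes were -0.12 (SE 0.13) and -0.23 (SE 0.11).

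**Figure D2:**
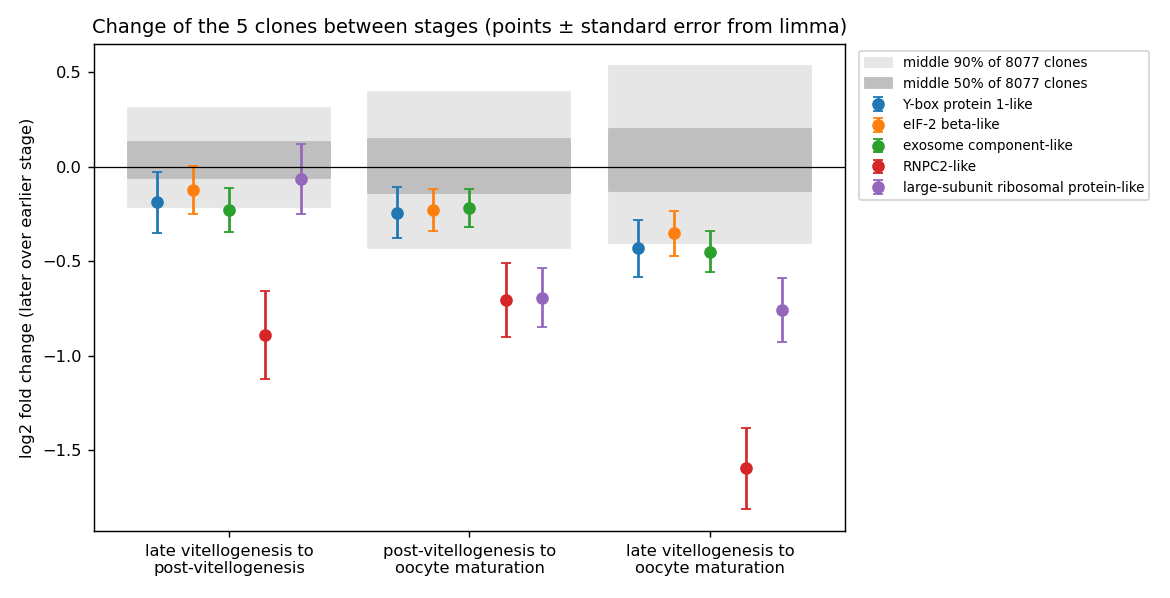
Fitted log2 fold change of the 5 clones between ovarian stages (vertical axis, later over earlier stage), as points ± standard error, with the middle 50% and middle 90% of the 8077 clones in grey. The RNPC2-like clone lies below the grey bands in each comparison (-0.89, -0.70 and -1.60). The large-subunit ribosomal protein-like clone does so in the comparisons that end in oocyte maturation (-0.69 and -0.76). The exosome component-like clone lies just below them in the first and last comparisons (-0.23 and -0.45), and the Y-box protein 1-like clone in the last (-0.43).

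Set beside all clones of the array, the 5 divide by size of difference. The median log2 fold change of all 8077 clones from late vitellogenesis to oocyte maturation was 0.03, with 5% of clones below -0.40, and the median of the 5 clones was -0.45. The eIF-2 beta-like clone, at -0.35 (SE 0.12), was inside the middle 90% of clones. The Y-box protein 1-like clone, at -0.43 (SE 0.15), and the exosome component-like clone, at -0.45 (SE 0.11), were just outside it. The large-subunit ribosomal protein-like clone, at -0.76 (SE 0.17), was the 64th lowest of all clones.

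In the first step, from the late vitellogenic to the post-vitellogenic females, 0 of the 5 passed the limma threshold of an adjusted p of 0.05 (0.0248% of all clones passed, in either direction). In that comparison 2 of the 5, the RNPC2-like and exosome component-like clones, had all later females below all earlier ones (1.30% of all clones did). Between post-vitellogenesis and oocyte maturation, 2 of the 5 passed with lower ratios in maturation (2.76% of all clones), the RNPC2-like and large-subunit ribosomal protein-like clones, and 0 of 5 had groups that did not overlap (2.88% of all clones). Between late vitellogenesis and oocyte maturation the same 2 clones and the exosome component-like clone passed (1.57% of all clones). These 3 also passed when the 7 earlier females were set against the 6 maturing ones (4.77% of all clones). The Y-box protein 1-like and eIF-2 beta-like clones passed in none of the 4 comparisons. The study's own test on these arrays had listed both, so for them the outcome differs between the tests. All the limma calls repeat the contrasts that selected the clones.

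The calls did not all hold when each of the 13 females was left out in turn. The RNPC2-like clone passed the comparisons of late vitellogenesis and of all earlier females with oocyte maturation with each female left out in turn. From post-vitellogenesis to oocyte maturation it passed with only female 31 left out (-0.94) and lost its call with any of the other 12 left out (-0.48 without female 15 to -0.76 without female 14). Without female 2, 3 or 4 this fold change stayed at -0.70 and the call was still lost. A lost call thus does not by itself mean that the difference rested on the female left out. The large-subunit ribosomal protein-like clone lost that call without female 14 (-0.55) or female 15 (-0.62), and the call from late vitellogenesis to oocyte maturation without female 3 (-0.72) or female 4 (-0.76). The exosome component-like clone lost the latter call without any 1 of females 2, 3 and 4 (-0.45, -0.42 and -0.48). Against all 7 earlier females it kept its call with 5 of the 13 females left out in turn and lost it without females 2, 3, 4, 13, 15, 25, 27 or 29 (-0.29 to -0.33). The Y-box protein 1-like clone passed against all earlier females without female 31 (-0.41), and the eIF-2 beta-like clone without female 30 (-0.30).

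The 4 post-vitellogenic females did not take the same order in the 5 clones. Each was placed on the log2 scale between the late vitellogenic mean (0%) and the maturing mean (100%) of a clone. For the RNPC2-like clone female 15 was at 13.2%, female 13 at 43.6%, female 14 at 66.3% and female 31 at 100.5%. The same order, from highest ratio to lowest, was seen for the exosome component-like clone, where they were at 27.2%, 39.9%, 50.7% and 86.6%. It was also the order of both ovarian aromatase clones, the enzyme of granulosa cells that makes estrogens, where females 15, 13, 14 and 31 were at 7.1%, 36.4%, 64.9% and 81.5% in clone tcac0004.f.21. Both aromatase clones belong to the same gene. The share of all clones with this order was not counted, so nothing is read from it. In the other 3 of the 5 clones female 14 had the highest ratio of the 4. It was at -49.5% for the large-subunit ribosomal protein-like clone, -41.0% for the Y-box protein 1-like clone and -40.6% for the eIF-2 beta-like clone. Female 31 was the most advanced of the 4 for every clone but the eIF-2 beta-like one, in which it was at 46.4% and female 13 at 70.8%.

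**Figure D3:**
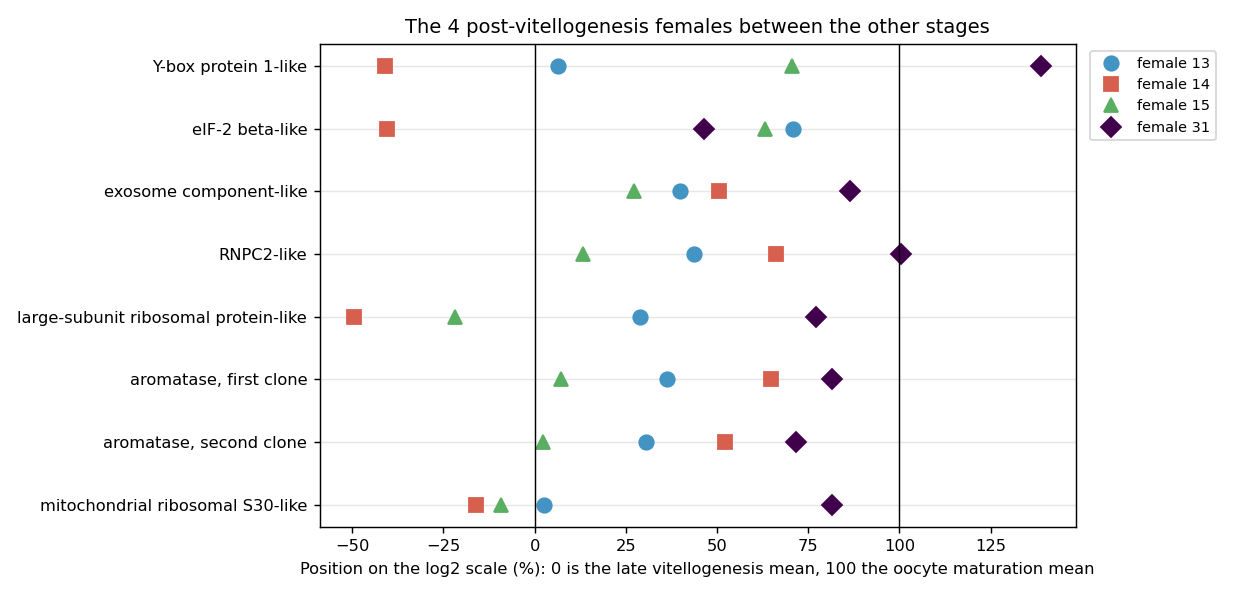
Position of the 4 post-vitellogenic females on the log2 scale (horizontal axis, in percent) for the 5 clones, both aromatase clones and the mitochondrial ribosomal S30-like clone. The vertical lines mark the late vitellogenic mean at 0 and the maturing mean at 100. Female 31 is farthest to the right in 7 of the 8 rows, and female 14 is left of 0 for the Y-box protein 1-like, eIF-2 beta-like and both ribosomal clones.

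Female 31 was below the post-vitellogenic mean for all 5 clones, with a median deviation of -0.41 on the log2 scale. The median of all clones on its array deviated by only -0.0029, but that of the 1682 clones with a geometric mean ratio of at least 2 deviated by -0.12, and 4 of the 5 clones are among these. The part of this in the low values of female 31 was not tested. Late vitellogenic females shifted too, by less for the 5 clones. Female 2 was below its stage mean for all 5 (median -0.07), and the 1682 clones deviated by -0.13 on its array. Female 3 was above for all 5 (median 0.07), with the 1682 clones at 0.11. By rank on the array instead of ratio, female 31 still lay within the maturing range for the RNPC2-like clone (78.9% of clones dimmer, against 70.5% to 82.2%) and for the exosome component-like clone (27.04% against 19.86% to 29.01%). The large-subunit ribosomal protein-like clone then separated, since the 4 post-vitellogenic females, at 91.2% to 96.3%, were all above the maturing ones at 85.2% to 90.7%. For the Y-box protein 1-like clone, females 15 and 31 both reached the maturing range by rank, and for the eIF-2 beta-like clone females 13 and 15 did.

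The spread between females also differed by stage. In oocyte maturation the SD of the log2 ratio was 0.07 for the exosome component-like clone, a value that only 0.545% of clones undercut. It was 0.08 for the Y-box protein 1-like clone and 0.10 for the eIF-2 beta-like clone, with 1.05% and 3.36% of clones lower. The RNPC2-like clone, at 0.18, and the large-subunit ribosomal protein-like clone, at 0.16, were also below the median SD of all clones, 0.22. In post-vitellogenesis the picture was the reverse for 3 of the 5. The SD was 0.59 for the RNPC2-like clone, above 98.7% of clones, 0.42 for the large-subunit ribosomal protein-like clone, above 95.5%, and 0.34 for the Y-box protein 1-like clone, above 90.1%. The exosome component-like clone (0.11) and the eIF-2 beta-like clone (0.18) were below or near the median of 0.18. The study's test for listing clones sets a stage difference against the spread within stages. Clones with small differences were thus more readily listed when their spread was small, and nothing is read from the low SDs. The percentages were not matched for brightness.

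**Figure D4:**
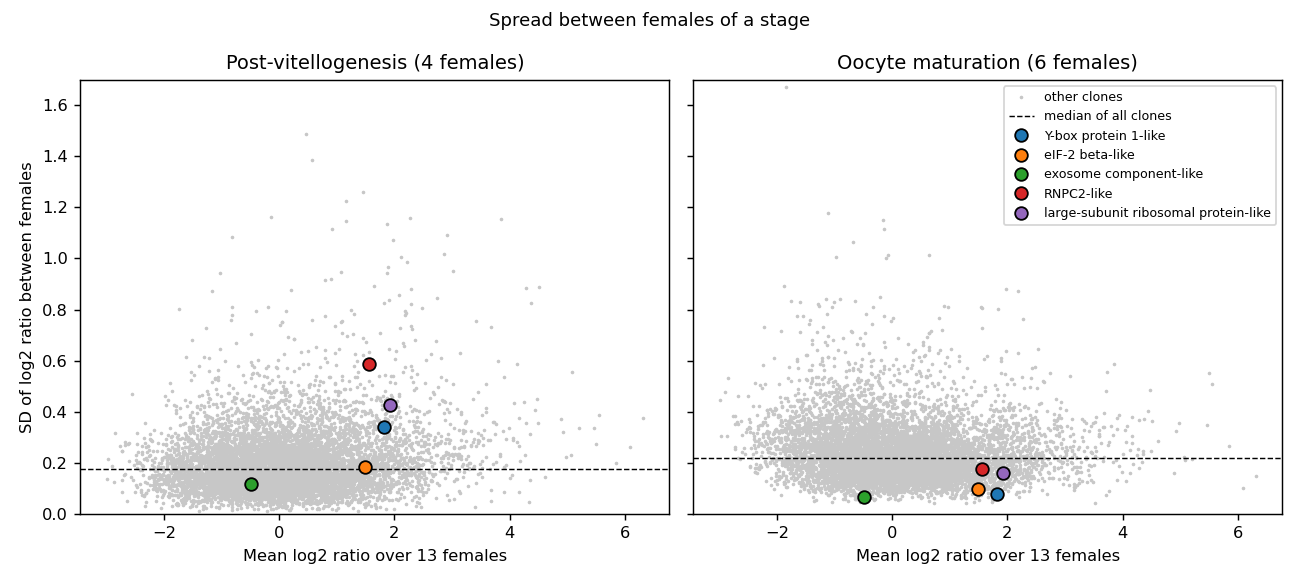
SD of the log2 ratio between females (vertical axis) against the mean log2 ratio over 13 females (horizontal axis) for the 8077 clones in grey, with the 5 clones in colour and the median SD as a dashed line. In post-vitellogenesis the RNPC2-like clone stands at 0.59, while in oocyte maturation all 5 lie under the median, from 0.07 to 0.18.

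Clones were ranked by likeness to each of the 5, as the root mean square difference of log2 ratios over the 13 females after centring each clone on its own mean. Nearest to the RNPC2-like clone was clone tcba0006.l.19, similar to the transferrin receptor that takes up iron, at 0.262, followed by tcac0006.f.17, similar to cytochrome P450 2J3, at 0.284. The median over all clones was 0.742, but it grows with the wide range of the RNPC2-like clone itself. In absolute terms 0.262 was a looser match than the nearest clone of each other clone of the 5 (0.077 to 0.143). Nearest to the exosome component-like clone was tcay0017.l.02, similar to a subunit of the mitochondrial NADH dehydrogenase, at 0.089 against a median of 0.291. All 3 of these neighbours are also on the study's list, which was built from the stage differences.

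Within the 5, the exosome component-like, eIF-2 beta-like and Y-box protein 1-like clones were nearest to each other. The difference was 0.141 between the exosome component-like and eIF-2 beta-like clones, 0.157 between the eIF-2 beta-like and Y-box protein 1-like clones and 0.176 between the Y-box protein 1-like and exosome component-like clones. These values follow in part from the small range of all 3 clones, and many unnamed clones were nearer still. The exosome component-like clone was only the 76th nearest to the eIF-2 beta-like clone. The large-subunit ribosomal protein-like clone had the cytochrome P450 1A3 clone tcag0002.n.03 as its nearest listed neighbour, at 0.165 against a median of 0.480.

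Of the other clones for protein synthesis on the study's list there is 1, tcab0003.h.21, similar to protein S30 of the mitochondrial ribosome. Its mean ratio was 1.65 ± 0.312 (SD, n = 3) in the late vitellogenic females and 1.55 ± 0.265 (SD, n = 4) in the post-vitellogenic ones. In the maturing females it was 1.08 ± 0.0838 (SD, n = 6). Like the large-subunit ribosomal protein-like clone it differed little in the first step (-0.09, SE 0.16) and more in the second (-0.51, SE 0.14). In both ribosomal clones female 14 was the highest and female 31 the lowest of the post-vitellogenic females.

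Of 6 clones for the folding, import and turnover of proteins, 3 were higher and 3 lower in oocyte maturation than in the 7 earlier females. All 6 passed the limma threshold (over all clones 4.09% passed as higher and 4.77% as lower). The lower ones were similar to the chaperonin subunit CCT theta, which helps fold actin and tubulin (1.37-fold), to HSP47, a collagen chaperone (1.54-fold), and to a signal peptide peptidase (1.39-fold). The higher ones were similar to TIM14 of mitochondrial protein import (1.67-fold), to the lysosomal tripeptidyl-peptidase I (1.62-fold) and to a regulatory subunit of the 26S proteasome (1.65-fold). In each of the 6 the maturing females did not overlap the earlier ones (over all clones 1.78% were wholly above and 1.63% wholly below). These 6 were selected by the study on the same stage differences, so their counts and directions are not independent evidence. The 3 lower ones came from the same cluster of the study's list as the 5 clones. The 3 higher ones came from a cluster of clones higher in maturation. Their division was thus fixed by the clusters they were drawn from, and no contrast with the 5 clones is read from it.

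**Figure D5:**
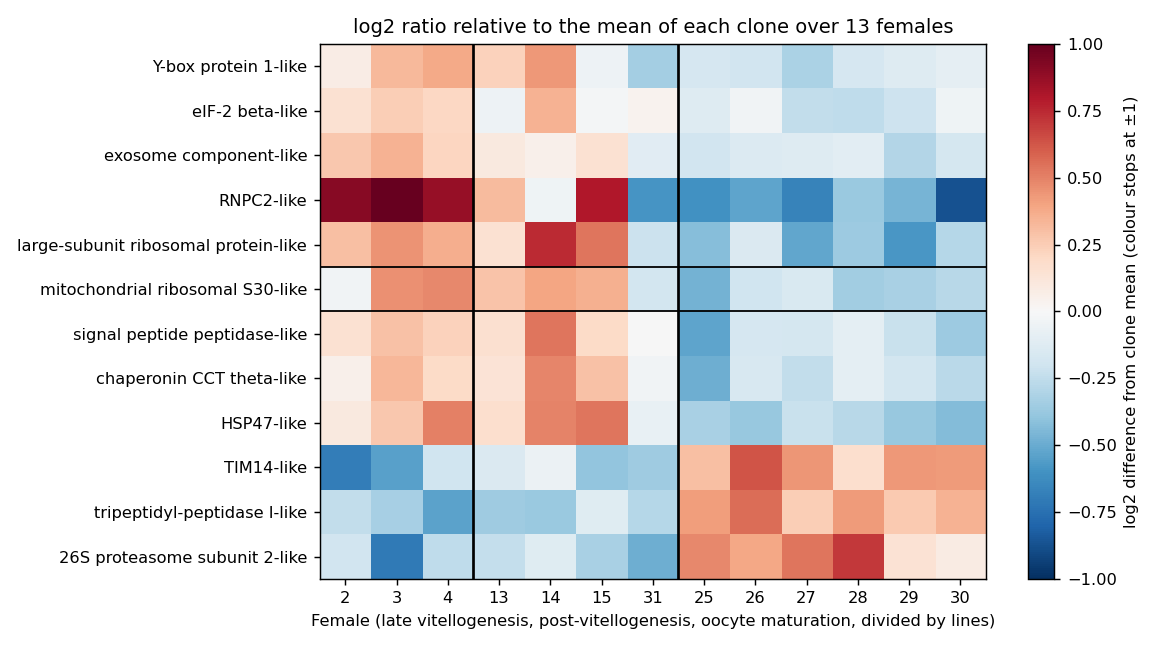
Difference of the log2 ratio from each clone's mean over 13 females, as colour from blue (lower) to red (higher), for the 5 clones, the mitochondrial ribosomal S30-like clone and the 6 protein-handling clones (rows) in each female (columns). The 5 clones and the S30-like clone are lower in the maturing females at the right, and 3 of the 6 protein-handling clones are higher there.

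The remaining 27 clones of the same cluster of the study's list, all lower in every maturing female than in every late vitellogenic one (4.30% of all clones were), give the setting. Of these 27, 25 passed as lower in the comparison of the 7 earlier females with the maturing ones (4.77% of all clones did), with a median log2 fold change of -0.66 and a range from -3.60 to -0.31. They too were selected on these contrasts, so nothing is read from these counts. The Y-box protein 1-like clone (-0.32), the exosome component-like clone (-0.32) and the eIF-2 beta-like clone (-0.28) were thus at or beyond the weak end of that range, and the RNPC2-like clone (-1.09) and the large-subunit ribosomal protein-like clone (-0.72) were within it.

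Clones used as markers of cell types also differed over the same interval. Both aromatase clones together had a summed ratio of 21.2 to 31.1 in the late vitellogenic females, 3.20 to 22.4 in the post-vitellogenic and 1.56 to 2.41 in the maturing ones. Of these, 2 of 2 were lower in every maturing female than in all earlier females (1.63% of all clones were). The summed ratio of the smooth muscle markers, similar to caldesmon and smoothelin, was 1.44 to 1.85, 1.39 to 2.07 and 5.22 to 7.63 in the same order. Here 2 of 2 were higher in every maturing female (1.78% of all clones were). The blood cell marker tcbk0004.a.22, similar to RGS18, had a ratio of 0.423 to 0.549, 0.396 to 0.501 and 0.638 to 1.38, and was higher as well. These 5 marker clones were also selected by the study on these stage differences, so nothing is read from their counts or directions. Listed clones similar to tropomyosin and junctophilin, proteins also found in muscle, were not among the markers and went the other way. They were lower in every maturing female than in every late vitellogenic one (4.30% of all clones were). None of the 5 marker clones was at 0 on any array, which holds for every clone analysed because of the filter. No marker of the oocyte itself was among the named clones. The study describes the fall of aromatase as reduced expression of estrogen synthesis genes. Its real-time PCR also measured less aromatase messenger RNA in oocyte maturation than in late vitellogenesis. Whether the aromatase ratio follows the number of granulosa cells was not tested. The part of a shift between cell types in the lower ratios of the 5 clones was not tested.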

How the data were processed

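The deposited values were the authors' ratios of spot signal, corrected with a vector oligonucleotide for the DNA in each spot, to the array median, so a difference between stages is relative to the median clone. Image analysis versions and the meaning of a value of exactly 0 were not given in the sources used here. The median was 1 on every array, and no scaling was added. Clones at 0 on any array were left out (280 at 0 on every array, 666 on some), which left 8077 of 9023, and 377 to 751 clones were at 0 per array. Within a stage, log2 values of any pair of arrays correlated across clones at 0.913 to 0.981.

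Groups came from the labels. Stages were compared with limma 3.58.1 in R 4.3.3 on log2 ratios, the 3 stages in 1 fit and the 7 earlier against the 6 maturing females in another, with Benjamini-Hochberg adjustment over the 8077 clones (two-sided, threshold 0.05). The methods' SAM was not run. The fit was tested on simulated data with shifts larger than most differences of the 5 clones, so that test does not measure calls at their sizes. Folds are ratios of geometric means. Clone names are best protein matches, mostly of other species, as given by the study, and 89 of its 90 listed clones were analysed. The members and lists were chosen with earlier results of these data known. Named were the 5 clones, the clones nearest to each by root mean square difference, and the fixed lists. Alternatives were a pseudocount of 0.1 without the filter, quantile normalization, array weights, leaving out clones with a mean ratio under 0.5, each pair of stages fitted alone, an adjusted p of 0.007, leaving out each female and, added after seeing the data, leaving out females 14 and 31. Part of the blood cell marker list is not reported here.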

Additional observations from a re-analysis of the deposited data

How the results depend on the processing

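No paired analysis was possible because the stages share no replicate numbers. Over all clones, the main counts past the threshold were 2 (late vitellogenesis to post-vitellogenesis), 369 (post-vitellogenesis to oocyte maturation), 326 (late vitellogenesis to oocyte maturation) and 715 (earlier females to oocyte maturation). In that order they were 22, 974, 1355 and 1123 with array weights and 0, 89, 93 and 263 at an adjusted p of 0.007. The first was 1 with only both stages in the fit and 0 without females 14 and 31, the second 174 without those females, and the third 187 with the pseudocount and no filter. Leaving out each female gave 0 to 4, 149 to 531, 121 to 433 and 495 to 805. Of the 5 clones, 0 passed the first comparison in every setting run. The 2 past the second became 1 with the pseudocount, with quantile normalization or with only both stages in the fit, 0 at 0.007 and 0 to 2 with a female left out. The 3 past the third became 5 with array weights and 1 at 0.007. They became 2 with the pseudocount or with only both stages in the fit, and 1 to 3 with a female left out. The 3 past the fourth became 5 with array weights, 4 with the pseudocount, 2 at 0.007 and 2 to 4 with a female left out. Array weights ran from 0.270 (female 30) to 4.32 (female 4), and the cause of the higher counts was not tested. The fold changes of the 5 clones moved by less than 1 SD in 392 cases and by more in 3. The 3 were the exosome component-like clone from late vitellogenesis to post-vitellogenesis with array weights (-0.14) and both steps of the RNPC2-like clone without females 14 and 31. Many of the 392 could not move, so their number does not measure stability. The stricter threshold, leaving out dim clones and fitting each pair of stages alone return the same fold change. Between 2 single stages, so does leaving out a female of the remaining stage. Leaving out dim clones changed none of these counts by over 1.5 times.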

Other observations

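For 3 of the 5 clones, the nearest clones of the array were ones that the sources used here do not name. For the eIF-2 beta-like clone these were 1RT128I22_C_E11 (root mean square difference 0.077), tcbk0056.b.11 (0.097) and tcab0001.m.08 (0.1003). For the Y-box protein 1-like clone they were 1RT81C15_A_B08 (0.116), tcan0001.a.05 (0.121) and 1RT29P18_D_H09 (0.122). For the large-subunit ribosomal protein-like clone they were tcac0003.f.07 (0.143), tcab0003.m.14 (0.145) and tcba0030.m.19 (0.152). In the groups of 4 and 6 females, none of the 10 sets of ratios of the 5 clones held a female beyond Dixon's limit, which chance passes in about 1 of 20 sets.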
